A study of Mus musculus with 9 samples.

Results

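The genes described here are 45 mouse genes of the cell division cycle, namely the G1 cyclins and their kinases, E2f1, the replication machinery, the enzymes of nucleotide supply and genes of mitosis. They were listed by symbol, and all 45 were present in a table of 19944 genes measured by RNA-seq in mouse liver. The listing asks for a mean of at least 10 normalized counts over the 9 libraries, which 41 of the 45 genes reached. Livers came from male mice aged 60 days, with the FVB strain named in the sample titles, and total RNA was made into libraries with a stranded mRNA kit. There were 3 groups of 3 libraries: WT (wild type), KO (knockout of SND1) and KI (knock-in of a Tudor domain mutant of SND1). The labels do not describe how either allele was made or which residue was changed. They name hepatocytes as the cell type, but the material is whole liver. Libraries are named by group and by the replicate number of the title, as in WT_1. Each library has an identifying number of its own in the sample descriptions. The labels do not say what that number stands for or whether replicates came from separate litters or cages, and the tests weigh differences against the spread among these libraries.

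A cell that enters the division cycle first makes D-type and E-type cyclins, which activate CDK4, CDK6 and CDK2. These kinases phosphorylate the retinoblastoma family and release E2F factors, which switch on genes for origin licensing, replication forks and nucleotide synthesis. Mitotic genes follow later and are held down in resting cells by the DREAM repressor complex. Hepatocytes of the adult liver are mostly quiescent and enter this programme after injury or loss of tissue. SND1 is a nuclease-fold protein whose Tudor domain binds methylated arginine, and E2F1 methylated on arginine is among its known ligands.

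Snd1 itself lay between 6512 and 8446 normalized counts in WT, between 227 and 414 in KO and between 5373 and 7941 in KI, so KO did not overlap the other groups. Hepatocyte markers, 10 of 10 detected, held 4.72% to 9.2% of each library, and in KO against WT limma and edgeR called none of the 10, while DESeq2 called 1, Ttr, lower. Some libraries stood apart. Markers of exocrine pancreas made up 1.2% of WT_3, 0.5% of KI_1 and 5.74% of KI_3, against at most 0.00524% of each other library. A list of 16 acute phase genes held 1.24% to 1.84% of each WT and KI library, 7.16% of KO_1, 18.9% of KO_2 and 19.8% of KO_3. KO_1 therefore lay nearer to WT than the other KO libraries on that list.

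In WT liver the most abundant of the 45 genes per kilobase of exon were Ccnd1 (cyclin D1) at 578 normalized counts per kilobase, Pcna (the sliding clamp of the replication fork) at 563, Cdk4 at 486 and Tk1 (thymidine kinase) at 355. Uhrf1, Aurkb and Ccnb1 were the scarcest of the 41 tested genes, at 4.05, 4.20 and 4.21 normalized counts per kilobase in WT. Aurkb and Ccnb1 were also the genes just inside the abundance limit, with means of 13.1 and 14.3 normalized counts over the 9 libraries. Just outside it were Cdc6 and Plk1, with means of 7.26 and 6.51.

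Orc1 and Cdc6, which load the replicative helicase at origins, and the mitotic kinases Bub1 and Plk1 were the 4 genes left untested. The reads recovered for Orc1 were 0, 2 and 0 in WT, 0 in each KO library, and 10, 6 and 2 in KI. Cdc6 had 16 reads over the 3 WT libraries, 14 over KO and 35 over KI. Bub1 had 13, 8 and 15 reads, and Plk1 had 25, 14 and 21 reads, in the same order of groups. For Orc1, KI_3 and WT_2 tied at 2 reads, and KI lay above WT only in normalized counts (2.24 in KI_3 against 1.93 in WT_2). All KI libraries lay above all KO libraries for Orc1 and for Cdc6, on these few reads. Among all genes tested, all KI libraries lay above WT in 9.47% and above KO in 12.3%. No test of these 4 genes was made in the reported fit. Of the 41 tested genes, 39 had a mean of at least 10 in every group, while Uhrf1 and Aurkb had KO means of 4.78 and 7.96.

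**Figure D1:**
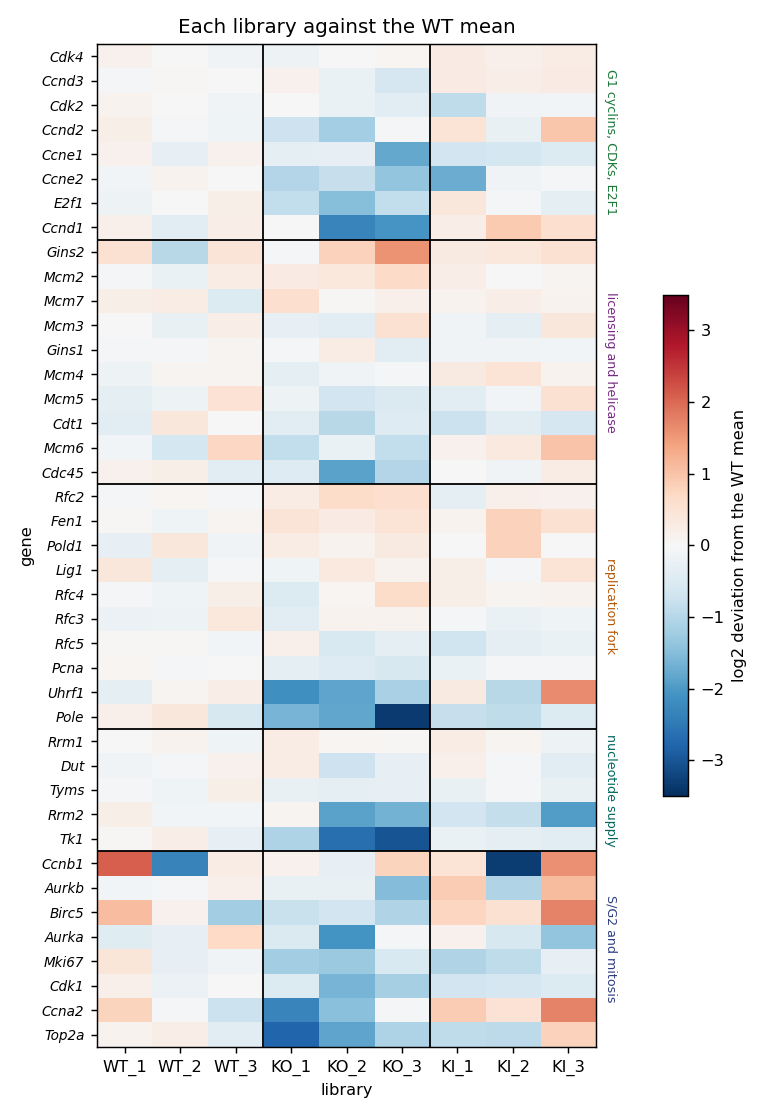
Log2 deviation of each library from the WT mean for the 41 tested genes (rows, ordered by role) in the 9 libraries (columns), with blue below and red above the WT mean. The KO columns hold most of the strong blue cells, in Tk1, Pole, Uhrf1, Ccnd1, Top2a and Ccna2, while Ccnb1 swings widely within each of WT and KI.

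The comparison of KO with WT asks what loss of SND1 does to these genes. Of the 41 tested genes, 4 fell in KO and none rose by limma at an adjusted p (Benjamini-Hochberg) under 0.05. The 4 were Tk1, Pole (the catalytic subunit of the leading-strand polymerase), Pcna and E2f1, the transcription factor at the head of the S phase programme. Across all 15238 genes tested, 4.2% were called lower in KO and 4.63% higher. At an unadjusted limma p under 0.05, 12 of the 41 genes were lower in KO and 1, Rfc2, was higher, against 12.2% and 12.8% of all genes. edgeR called 3 of the 41, all lower (7.94% of all genes called), and DESeq2 called 8, of which 7 were lower and Rfc2 was higher (15.1% of all genes called, 7.11% as lower). In bulk liver, fewer cells of a dividing type and less RNA per cell cannot be told apart.

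Without regard to a call, 31 of the 41 log2 fold changes were below 0, against 50% over all genes. Their median was −0.45 and their range −2.26 to 0.79, beside a median of 0.00 for all genes. The median over the listed genes was −0.24 in those with a mean of at least 50, −0.27 with the share of pancreatic markers as a covariate, −0.28 without WT_3, −0.28 without the 3 libraries with pancreatic transcripts and −0.29 without KO_2. All 3 KO libraries lay below all 3 WT libraries in 13 genes, or 31.7% of the 41, where 14.2% of all genes did so. The 13 include Uhrf1 and Aurkb, which had KO means under 10 and passed the abundance limit only through WT and KI. The listed genes were also chosen with earlier results of these data known. All 3 KO libraries lay above WT in 3 genes, Mcm2, Rfc2 and Fen1, where 15.0% of all genes did. By role, the 8 genes of S/G2 and mitosis had a median log2 fold change of −0.96 and the 8 G1 genes one of −0.73. The 10 licensing and helicase genes had −0.11, the 10 fork genes 0.01 and the 5 nucleotide genes −0.29.

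**Figure D2:**
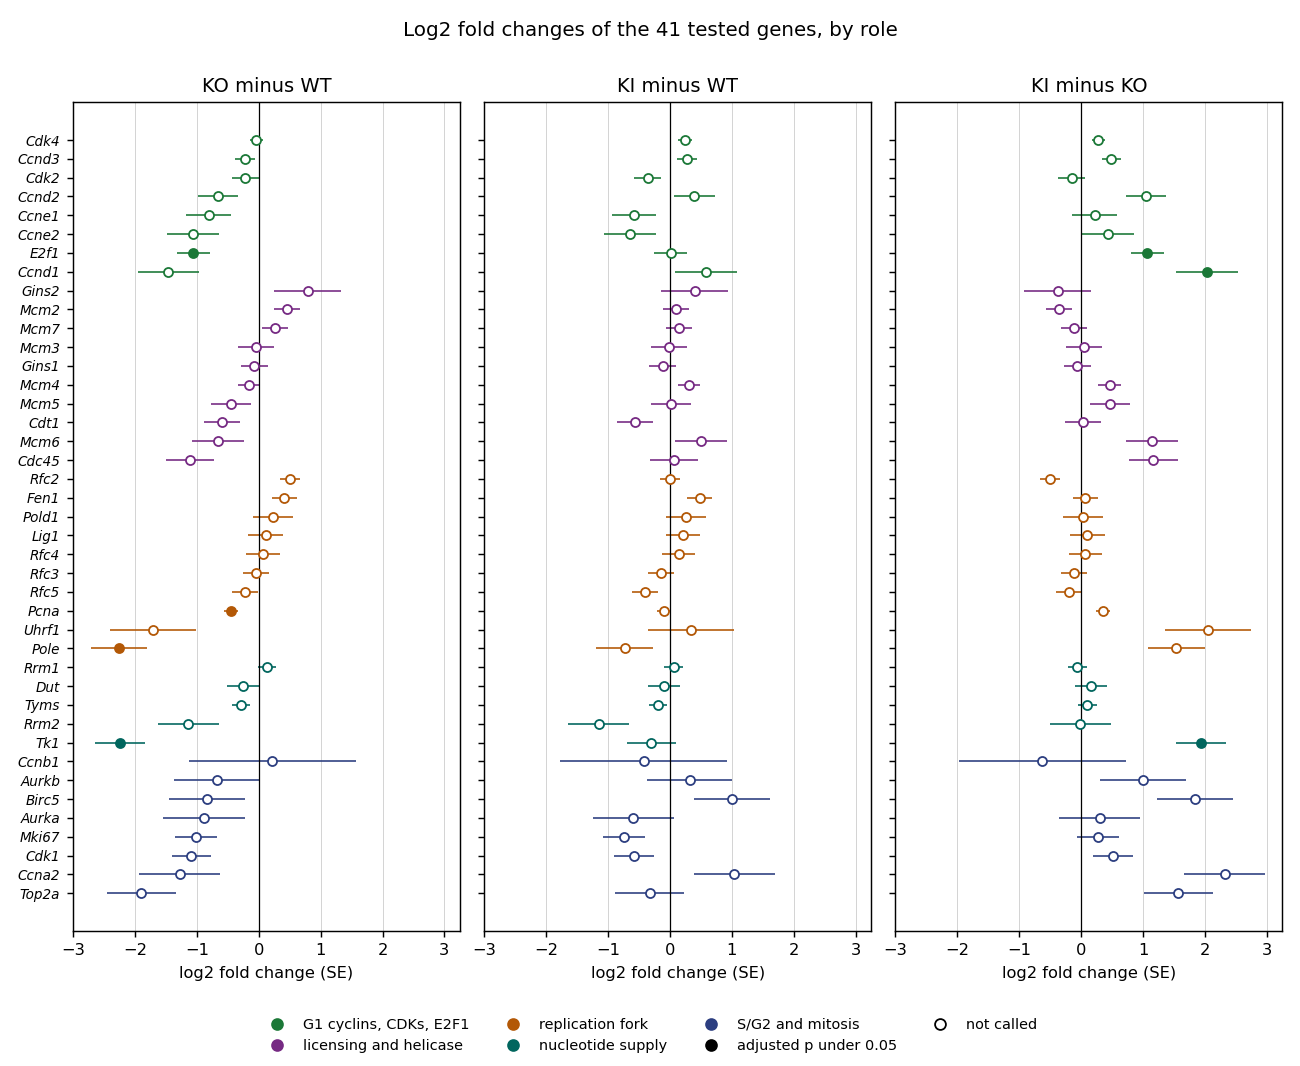
Log2 fold change with its standard error (x axis) for each of the 41 tested genes (y axis, coloured by role) in the 3 comparisons, with filled points for an adjusted p under 0.05. Filled points appear for Tk1, Pole, Pcna and E2f1 in KO minus WT and for Tk1, Ccnd1 and E2f1 in KI minus KO, and there are none in KI minus WT.

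In the G1 group, E2f1 fell in KO. E2f1 (chromosome 2, 154559407 to 154569892, minus strand, GRCm38) read 132, 149 and 174 normalized counts in WT, 83.2, 53.7 and 83.3 in KO, and 199.7, 147 and 119 in KI. All KO values lay below all WT and KI values, while WT and KI overlapped. The mean was 152 ± 21.1 (SD, n = 3) in WT and 73.4 ± 17.1 in KO, and the fitted log2 difference was −1.06 (SE 0.27, limma adjusted p = 0.0391). By edgeR the adjusted p of E2f1 was 0.0526, and by DESeq2 it was 0.00463.

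Ccnd1, which activates CDK4 and CDK6 on mitogen signals, had 3012, 2009 and 3138 normalized counts in WT, 2699.7, 537 and 633 in KO, and 3122, 5048 and 4052 in KI. KO_2 and KO_3 were far below every other library, but KO_1 lay within the WT range. The log2 fold change of KO against WT was −1.46 (SE 0.50, limma adjusted p = 0.105). Without KO_1 it was −2.19 with a limma adjusted p of 0.000256, so the outcome turned on that library.

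The other 6 genes of the G1 group were not called in KO. Ccne1 and Ccne2, the E-type cyclins that activate CDK2, had KO means 1.59-fold and 2.09-fold below WT, and in both genes the groups did not overlap. For Ccne1 the groups nearly touched, at 191.44 normalized counts in KO_2 and 191.72 in WT_2, while KO_3 was lowest at 66.1. Ccnd2 had a KO mean 1.51-fold below WT with overlapping groups. Cdk2 and Ccnd3 had log2 fold changes of −0.22 each. Cdk4, the kinase partner of cyclin D1, read 1734, 1555 and 1444 normalized counts in WT, 1376, 1581 and 1652 in KO, and 1905, 1777 and 1897 in KI. Its WT and KO values were interleaved (log2 fold change −0.04, limma adjusted p = 0.873).

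In the licensing and helicase group, no gene of 10 was called in KO by limma, edgeR or DESeq2, and 1, Cdc45, had an unadjusted limma p under 0.05. Cdc45, a subunit that joins the MCM ring to form the active helicase, read 64.3, 67.4 and 45.1 normalized counts in WT, 42.6, 15.2 and 28.1 in KO, and 59.0, 53.9 and 69.5 in KI. KO was lowest throughout, with KO_1 just under WT_3. The log2 fold change was −1.11 (SE 0.39, limma adjusted p = 0.113).

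The 6 subunits of the MCM ring, the core of the helicase, were not called. Their KO log2 fold changes were 0.45 for Mcm2, −0.05 for Mcm3, −0.16 for Mcm4, −0.45 for Mcm5, −0.66 for Mcm6 and 0.26 for Mcm7. Mcm2 was the only MCM subunit of these 6 whose KO libraries all lay above WT. Cdt1, which brings the MCM ring to origins, read 82.5, 144.5 and 110.2 normalized counts in WT, 84.2, 55.7 and 79.6 in KO, and 64.4, 84.0 and 72.9 in KI. WT_2 and WT_3 were above every KO and KI library, but WT_1 lay among them (KO against WT −0.60, limma adjusted p = 0.232). Gins1, a further helicase subunit, was nearly level (−0.07), and Gins2 had a log2 fold change of 0.79 at means of 21.8 in WT and 38.5 in KO, with overlapping libraries.

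In the fork group, Pole and Pcna fell. Pole (chromosome 5, 110286306 to 110337474, plus strand) read 124, 144 and 74.1 normalized counts in WT, 34.5, 30.4 and 9.95 in KO, and 62.3, 58.5 and 78.5 in KI. KO lay below both other groups without overlap, and KI lay between them, with KI_3 above WT_3. The mean was 114 ± 35.8 in WT and 24.9 ± 13.1 in KO, 4.56-fold lower, and the fitted log2 difference was −2.26 (SE 0.46, limma adjusted p = 0.0158). An antisense gene, Gm15792, shares 78 annotated exon bases with Pole and was not analysed here.

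Pcna (chromosome 2, 132249162 to 132253314, minus strand) read 1410.0, 1310.2 and 1329.8 normalized counts in WT, 1067, 989 and 921 in KO, and 1144, 1316 and 1325 in KI. All KO values lay below all others, by a small margin beside the KI_1 value. The mean was 1350.0 ± 52.9 in WT and 992 ± 72.9 in KO, 1.36-fold lower, and the fitted log2 difference was −0.45 (SE 0.11, limma adjusted p = 0.0327). A copy of the gene, Pcna-ps2, held between 3.84 and 10.1 normalized counts in each library.

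The clamp loader subunits and the enzymes that finish Okazaki fragments were not called in KO by limma. Rfc2, a clamp loader subunit, had means of 776 in WT and 1111 in KO (log2 fold change 0.51, limma adjusted p = 0.0773, DESeq2 adjusted p = 0.0333), and its KO libraries all lay above WT. Rfc3 (−0.04), Rfc4 (0.07) and Rfc5 (−0.22) were close to level. Fen1, the flap endonuclease, read 182, 159.9 and 187 normalized counts in WT, 243, 217 and 246 in KO, and 190.0, 310.5 and 254 in KI. WT was lowest in all cases, with KI_1 only just above WT_3 (KO against WT 0.41, limma adjusted p = 0.238). Lig1 (DNA ligase) and Pold1 (the lagging-strand polymerase) had log2 fold changes of 0.11 and 0.23. Uhrf1, which carries DNA methylation through replication, had means of 17.3 in WT and 4.78 in KO with no overlap (log2 fold change −1.71, limma adjusted p = 0.157).

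In the nucleotide group, Tk1, the salvage enzyme that phosphorylates thymidine, fell. Tk1 (chromosome 11, 117815526 to 117826092, minus strand) read 1875, 2154 and 1502 normalized counts in WT, 869, 294 and 222 in KO, and 1569, 1465 and 1409 in KI. Every KO library lay below every other library, and KO_1 was nearer to WT than KO_2 and KO_3. The mean was 1844 ± 327 in WT and 462 ± 355 in KO, 3.99-fold lower, and the fitted log2 difference was −2.24 (SE 0.40, limma adjusted p = 0.00895).

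Tk1 lies head to head with Afmid, a gene of tryptophan breakdown on the opposite strand, and 83 exon bases of their annotations overlap. Afmid read 2498, 2826 and 2008 normalized counts in WT, 1081, 498 and 439.8 in KO, and 2171, 2289 and 2237 in KI. Its log2 fold change in KO was −1.97 (limma adjusted p = 0.00349), so both neighbours fell. The strand setting of the counting is not given in the sources used here, and the reads that fall in the shared bases cannot be told apart. The stretch upstream of Tk1 is shown because Tk1 was called lower in KO. It is RefSeq sequence of GRCm38.p6, chr11:117826093-117826264 on the minus strand, from 250 to 79 bases before the Tk1 start and outside any annotated exon, with no capitals because none of the motifs searched below lies in it.
Tk1: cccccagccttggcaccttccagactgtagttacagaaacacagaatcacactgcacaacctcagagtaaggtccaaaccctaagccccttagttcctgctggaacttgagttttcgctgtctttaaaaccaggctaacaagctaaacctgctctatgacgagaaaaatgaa

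Rrm2, the regulated subunit of ribonucleotide reductase, read 417, 338 and 339 normalized counts in WT, 390.5, 98.3 and 114 in KO, and 228, 203 and 93.0 in KI. KO_1 lay within the WT range while KO_2 and KO_3 were far below it (KO against WT −1.14, limma adjusted p = 0.183). Without KO_1, Rrm2 was called lower. Its partner Rrm1 was nearly level (0.13), as were Tyms (thymidylate synthase, −0.29, no overlap between groups) and Dut (dUTPase, −0.25).

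**Figure D3:**
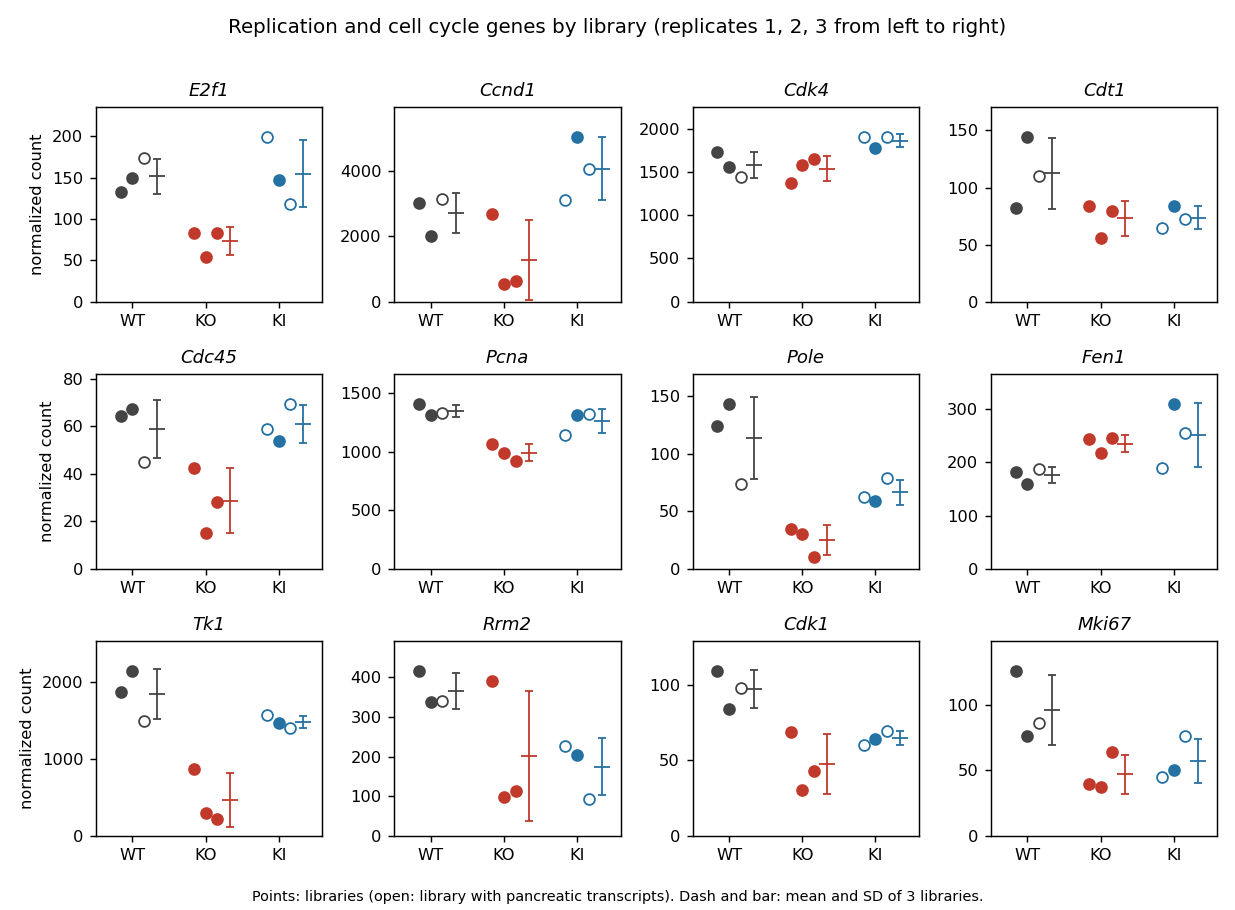
Normalized counts (y axes, each from 0) of 12 named genes in the 9 libraries, with replicates 1 to 3 from left to right in each group, open points for the 3 libraries with pancreatic transcripts, and mean ± SD beside them. KO_2 and KO_3 are the low libraries for Ccnd1, Rrm2 and Tk1, and the KO points of Pole, Pcna, E2f1 and Tk1 lie below all WT and KI points.

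In the S/G2 and mitosis group, no gene of 8 was called in KO by limma or edgeR, although 3 (Cdk1, Mki67 and Top2a) had an unadjusted limma p under 0.05 and were called lower by DESeq2. Cdk1, the kinase that drives entry into mitosis, read 109, 83.8 and 98.1 normalized counts in WT, 69.0, 30.4 and 42.5 in KO, and 60.1, 63.9 and 69.5 in KI. WT was highest in all cases, while KO_1 fell within the KI range. The log2 fold change was −1.09 (SE 0.32, limma adjusted p = 0.0626).

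Mki67, the chromosome coat protein used as a proliferation marker, read 127, 76.1 and 86.1 normalized counts in WT, 39.6, 37.5 and 64.3 in KO, and 45.1, 50.2 and 76.2 in KI. All KO values lay below all WT values, and KI spanned the gap (KO against WT −1.02, limma adjusted p = 0.0943). Top2a, the topoisomerase that untangles sister chromatids, had means of 69.3 in WT and 19.7 in KO, 3.52-fold lower with no overlap (limma adjusted p = 0.0630). Ccna2 and Birc5 (survivin) had KO means 2.28-fold and 2.27-fold below WT with overlapping libraries. The aurora kinases Aurka and Aurkb had log2 fold changes of −0.89 and −0.68. Ccnb1 ranged from 0.96 to 41.2 within WT alone, and its standard error of 1.35 exceeded its log2 fold change of 0.22.

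The upstream stretch of Cdk1 is shown because Cdk1 had the smallest limma p for KO against WT in the S/G2 and mitosis group. It is RefSeq sequence of GRCm38.p6, chr10:69352939-69353162 on the minus strand, from 250 to 27 bases before the start and outside any annotated exon. Capitals mark, in order, a CCAAT box (printed as its reverse complement ATTGG), an E2F motif (TTTCGCGC), a further CCAAT box, a CHR motif (TTTGAA, the element bound by DREAM) and a last CCAAT box, none of which overlap.
Cdk1: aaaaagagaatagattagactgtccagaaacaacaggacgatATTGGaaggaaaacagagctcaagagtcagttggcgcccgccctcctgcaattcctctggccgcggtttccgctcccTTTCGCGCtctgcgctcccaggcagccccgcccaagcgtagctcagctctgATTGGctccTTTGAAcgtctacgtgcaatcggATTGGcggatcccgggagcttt

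RefSeq windows from 250 bases before to 50 after the start matched 35 of the 45 genes. Both strands were searched for the E2F motif (TTTCCCGC, TTTCGCGC, TTTGCCGC or TTTGGCGC), the CCAAT box (CCAAT) and the CHR motif (TTTGAA). An E2F motif lay in a window of 13 of the 35 genes (37.1%) and of 2.6% of all 27025 genes with a window. It was found for 1 of 5 G1 genes, 7 of 9 licensing and helicase genes, 4 of 8 fork genes, 0 of 5 nucleotide genes and 1 of 8 S/G2 and mitosis genes. Of the genes called lower in KO, Tk1, Pcna and E2f1 had a window without an E2F motif, and Pole had no window. The longest upstream stretch outside annotated exons was 42 bases for Pcna, with none of the motifs in it, and E2f1 had no such stretch. The CCAAT box was found for 21 of the 35 genes (60.0%, against 41.1% of all genes with a window), with 7 of 8 in the mitosis group. The CHR motif was found for 8 of the 35 genes (22.9%, against 20.2%), with 5 of 8 in the mitosis group, namely Aurka, Cdk1, Mki67, Plk1 and Top2a. A match is a run of letters and says nothing about binding.

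Tk1 and Pole kept their calls in more alternative fits than Pcna and E2f1. The adjusted p of Tk1 stayed under 0.05 in 22 of 23 alternative fits, edgeR and DESeq2 among them, that of Pole in 20, that of Pcna in 14 and that of E2f1 in 11. With WT_3, KI_1 and KI_3 left out, the log2 fold changes were −2.38 for Tk1, −2.54 for Pole, −0.46 for Pcna and −0.96 for E2f1, and limma adjusted p-values were 0.151, 0.14, 0.172 and 0.213, in a fit that called 30 genes in all. That fit kept only WT_1 and WT_2 in WT and only KI_2 in KI. With the share of pancreatic markers as a covariate, Tk1 and Pole were called (limma adjusted p = 0.0244 and 0.0388) and Pcna and E2f1 were not (0.0785 and 0.0964).

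**Figure D4:**
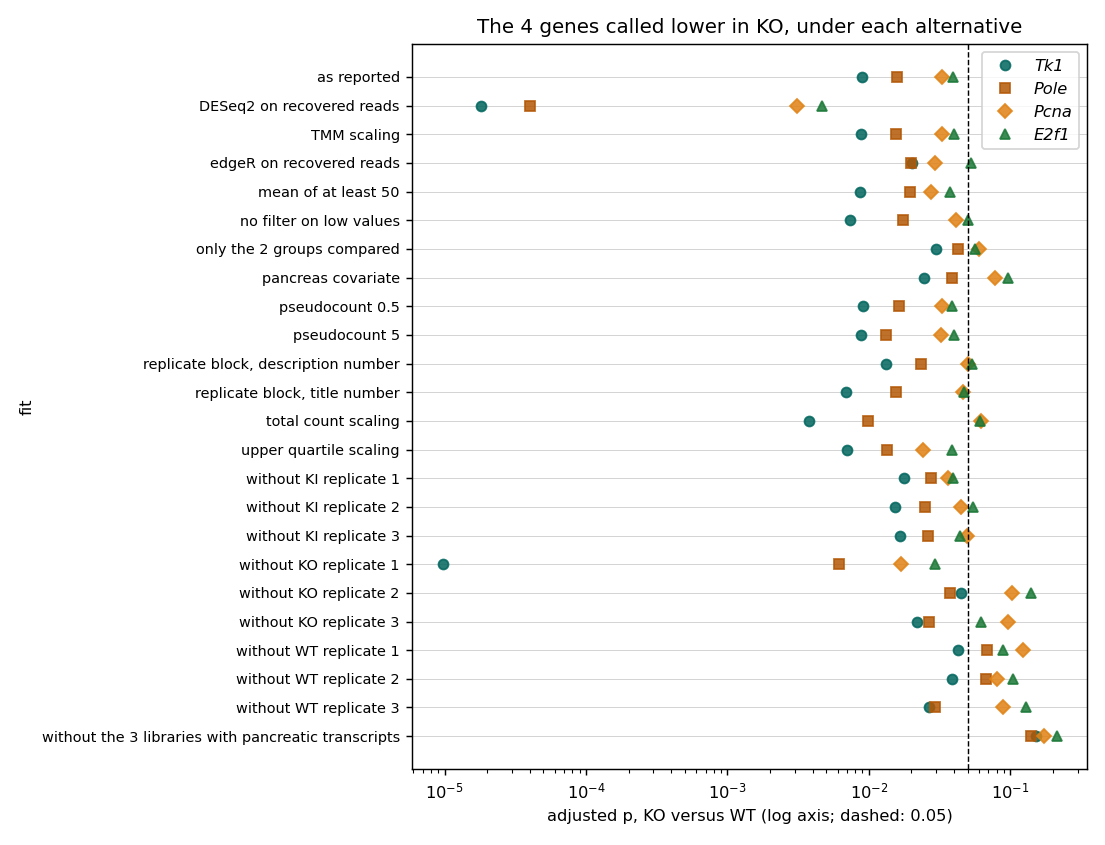
Adjusted p for KO versus WT (x axis, log scale, dashed line at 0.05) of the 4 genes called lower in KO, under the reported fit and 23 alternatives (y axis). Tk1 lies left of the line in 22 of the 23 alternatives and Pole in 20, whereas Pcna and E2f1 cross it more often.

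The comparison of KI with WT asks what the Tudor domain mutation does. None of the 41 genes was called by limma, edgeR or DESeq2, where limma called 0.0263%, edgeR 0.00656% and DESeq2 2.53% of all genes. DESeq2 left the adjusted p of Uhrf1, Ccnb1, Aurka and Aurkb undefined, so it could not call these genes. At an unadjusted limma p under 0.05 there were 2 of the 41, Fen1 higher and Rrm2 lower, against 11.6% of all genes. The median log2 fold change was 0.01, with 19 of the 41 below 0 (49.3% over all genes). All 3 KI libraries lay above WT in 4 genes, Ccnd3, Cdk4, Mcm4 and Fen1 (9.47% of all genes), and below WT in 5, Ccne1, Gins1, Rfc5, Rrm2 and Cdk1 (10.2% of all genes).

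For the 4 genes that fell in KO, the KI log2 fold changes against WT were 0.01 for E2f1 (SE 0.27), −0.10 for Pcna (SE 0.11), −0.30 for Tk1 (SE 0.40) and −0.73 for Pole (SE 0.46). Rrm2 had a KI mean of 174 against 365 in WT, for a fitted log2 difference of −1.15 (SE 0.49, limma adjusted p = 0.409), with KI_3 the lowest library. Fen1 had 252 against 177 (0.48, SE 0.20, limma adjusted p = 0.395). Cdk1 and Mki67 had KI log2 fold changes of −0.58 and −0.74, and Ccna2 and Birc5 of 1.04 and 1.0, none of them called. KI_3, which held the largest share of pancreatic transcripts, was the highest of the 9 libraries in 10 of the 41 genes (11.1% of all genes), among them Ccna2, Top2a, Aurkb, Birc5 and Uhrf1. The part of the pancreatic transcripts in those values was not tested.

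The comparison of KI with KO sets the mutant protein beside its absence. By limma, 3 of the 41 genes were higher in KI and none was lower, where 3.6% of all genes were called higher and 4.85% lower. The 3 were Tk1 (log2 fold change 1.94, SE 0.40, adjusted p = 0.0174), Ccnd1 (2.04, SE 0.50, adjusted p = 0.0363) and E2f1 (1.07, SE 0.27, adjusted p = 0.0396). The KI mean was 3.21-fold the KO mean for Tk1, 3.16-fold for Ccnd1 and 2.12-fold for E2f1, and in each of the 3 genes no KI library overlapped KO. Tk1 and E2f1 were also called by edgeR (adjusted p = 0.0393 and 0.0482) and DESeq2 (0.000536 and 0.00361), but Ccnd1 was called by limma alone (edgeR adjusted p = 0.0897, DESeq2 0.0599). This comparison shares its KO libraries with that of KO and WT, and both comparisons against WT share the WT libraries, so the 3 sets of values are not independent.

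Pole (1.54, limma adjusted p = 0.0690) and Pcna (0.35, 0.0789) were higher in KI in every library and were called by neither limma nor edgeR, while DESeq2 called both (adjusted p = 0.0186 and 0.0313). At an unadjusted limma p under 0.05, 15 of the 41 genes were higher in KI (11.8% of all genes) and 1, Rfc2, was lower (13.0%). All KI libraries lay above all KO libraries in 14 genes, or 34.1%, where 12.3% of all genes did so. These included Cdk4, Ccnd3, Mcm4, Mcm6, Cdc45, Uhrf1, Ccna2, Top2a and Birc5. Uhrf1 passed the abundance limit only through WT and KI. All KI libraries lay below KO in Mcm2 and Rfc2 (14.1% of all genes). Of the 41 log2 fold changes, 11 were below 0, where 49.0% of all genes were. Their median was 0.28, against 0.01 over all genes, and it was 0.76 in the mitosis group and 0.46 in the G1 group. Over the listed genes it was 0.13 at a mean of at least 50, 0.16 with the pancreatic covariate and 0.17 with scaling to the library total. Ccna2 had the largest value, 2.32 (SE 0.65, limma adjusted p = 0.0540), and DESeq2 called it higher (adjusted p = 0.0138). edgeR called 2 of the 41 genes (7.88% of all genes called), and DESeq2 called 10, of which Rfc2 alone was lower (15.0% of all genes called). No gene of the 41 was called by limma in this comparison when KI_1, KI_3 or KO_2 was left out, when only the 6 libraries of the 2 groups were fitted, or with the pancreatic covariate. Leaving out the 3 libraries with pancreatic transcripts keeps KI_2 as the only KI library. The log2 fold changes were then 1.93 for Tk1, 2.38 for Ccnd1 and 1.02 for E2f1. Ccnd1 shares 1100 annotated exon bases with LTO1 on the opposite strand, which was level between KO and WT (0.04) and higher in KI than in KO (0.56, limma adjusted p = 0.0452).

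Other genes of the pathway were taken from 5 lists that hold none of the 45. Of 18 tested genes of the E2F, RB and DREAM families, limma and edgeR called 1 lower in KO (5.56%, beside 4.2% of all genes by limma) and none higher. It was Tfdp2, a dimer partner that E2F factors need to bind DNA, and DESeq2 also called Rbl2 lower. Tfdp2 read 1442, 1608 and 1349.8 normalized counts in WT, 946, 888 and 717 in KO, and 1269, 1275 and 1401 in KI. KO lay below both other groups (KO against WT −0.79, limma adjusted p = 0.00613, and KI against KO 0.64, adjusted p = 0.0166). Rbbp4, a histone-binding subunit of DREAM, was higher in KI than in KO (0.73, limma adjusted p = 0.0392). The median log2 fold change of this list in KO against WT was −0.18.

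Of 5 tested CDK inhibitors, limma, edgeR and DESeq2 each called 1 higher in KO, where limma called 4.63% of all genes higher. Cdkn1a (p21, an inhibitor of CDK2 that also binds PCNA) read 64.3, 106 and 31.0 normalized counts in WT, 683, 948 and 1855 in KO, and 106, 58.5 and 52.7 in KI. Every KO library was several times above every other, with KO_1 the lowest of the KO libraries. The KO mean was 17.3-fold the WT mean (log2 fold change 4.13, SE 0.48, limma adjusted p = 0.00134), and KI against KO was −3.93 (limma adjusted p = 0.00179).

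Of 20 tested checkpoint genes, limma and edgeR called 2 lower in KO, Wee1 and Atr, and none higher, where limma called 4.2% of all genes lower. DESeq2 called the same 2 lower and also 3 higher, Cdc25a, Rad1 and Brca1. Wee1, the kinase that holds CDK1 inactive, read 1234, 1277 and 1131 normalized counts in WT, 133, 161 and 36.2 in KO, and 1101, 1016 and 992 in KI. KO was far below both other groups, and KI lay just below WT without overlap. The KO mean was 11-fold below WT (log2 fold change −3.70, SE 0.43, limma adjusted p = 0.00134), while KI against WT was −0.23 (adjusted p = 0.882). Atr, the kinase that senses stalled forks, had means of 1023 ± 27.7 in WT, 639.6 ± 43.5 in KO and 606 ± 17.9 in KI. Its log2 fold change was −0.68 in KO (limma adjusted p = 0.00511) and −0.75 in KI (adjusted p = 0.0557), with neither mutant group overlapping WT.

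Of 46 further replication genes, limma called 2 lower (4.35%) and 1 higher (2.17%) in KO, beside 4.2% and 4.63% of all genes. Orc5 (origin recognition) fell from a mean of 783 to 513 (−0.61, limma adjusted p = 0.0452) and Chaf1b (chromatin assembly behind the fork) from 183 to 84.0 (−1.16, limma adjusted p = 0.0389). Prim1, the catalytic subunit of primase, rose from 104 to 238 (1.16, limma adjusted p = 0.0239). In KI against KO, Chaf1b (1.22, limma adjusted p = 0.0343) and Mcm10 (1.35, adjusted p = 0.0143) were higher. Mcm10 had 967 normalized counts per kilobase in WT, above each of the 45 listed genes, and whether all of these reads belong to Mcm10 could not be checked from the table.

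Of 43 further mitotic genes, limma called 1 lower (2.33%) and 1 higher (2.33%) in KO, beside 4.2% and 4.63% of all genes. edgeR called Hmmr alone, lower, and DESeq2 called Cdc20, Spc24 and Hmmr lower and Nek2 higher. Spc24, a kinetochore subunit, had means of 165.5 in WT and 29.2 in KO (−3.23, limma adjusted p = 0.0452), with 55.8, 2.03 and 29.9 normalized counts in the KO libraries. Nek2, a centrosome kinase, had 184 in WT, 297 in KO and 104 in KI (KO against WT 0.71, limma adjusted p = 0.0470, KI against KO −1.51, adjusted p = 0.00209). Hmmr, a spindle protein, and Espl1 (separase) were higher in KI than in KO (2.47 and 3.47, limma adjusted p = 0.0272 and 0.0458), at KO means of 3.84 and 2.70. With such KO means, both genes passed the abundance limit only through the other groups. The median log2 fold change of the 43 genes was −0.45 in KO against WT and 0.46 in KI against KO. In KI against WT, limma and edgeR called none of the 132 genes in these 5 lists, DESeq2 called 5 (Nek2, Atr, Atm, Rad1 and Brca2), and 15 had an unadjusted limma p under 0.05. Over all genes DESeq2 called 2.53%, and 11.6% had such an unadjusted p.

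The KO calls of Cdkn1a, Wee1, Tfdp2 and Atr held in 22 of 23 alternative fits and were lost without the 3 libraries with pancreatic transcripts. Those of Prim1 held in 16, of Orc5, Chaf1b and Spc24 in 12 and of Nek2 in 7. In KI against KO, the calls of Cdkn1a, Wee1 and Nek2 held in 22 of 23, of Mcm10 in 19, of Tfdp2 in 17, of Chaf1b in 12 and of Rbbp4 in 11, and those of Hmmr and Espl1 in 16 and 9 of 22. Genes annotated on the opposite strand overlap exons of Cdkn1a, Atr, Nek2 and Rbbp4, and reads of such bases cannot be told apart.

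Markers of cells that divide or infiltrate were read beside these results. The 9 detected neutrophil markers summed to 107 to 310.4 normalized counts in WT, 225, 1074 and 1882 in KO_1, KO_2 and KO_3, and 129.9 to 469 in KI, with Elane at 0 in all WT libraries. Of 7 tested neutrophil markers, limma and edgeR called Mmp8 higher in KO, and DESeq2 called Mmp8, S100a8 and Retnlg. The 12 lymphocyte markers summed to 744 to 1098 in WT, 831 to 1402 in KO and 802 to 1416 in KI, and limma, edgeR and DESeq2 called none of the 9 tested in KO. Of 10 macrophage markers, limma, edgeR and DESeq2 each called Marco, Mpeg1 and Cd163 higher in KO, where limma called 4.63% of all genes higher. Another 4 of the 10, Adgre1, Clec4f, Timd4 and Cd5l, had log2 fold changes below 0 in KO, and the median of the list was 0.15. The erythroid sum was 55910 to 89700 in all libraries except KI_3, where it was 123600. Of 7 tested erythroid markers, limma and edgeR called none in KO, and DESeq2 called 1, Klf1, lower (7.11% of all genes). All KO libraries lay below WT in 2 of the 7, Alas2 and Klf1 (14.2% of all genes). The log2 fold change was below 0 in 4 of the 7, with a median of −0.14. All 16 acute phase genes were higher in KO, and the KO library with the smallest share of them, KO_1, was also the one nearest to WT in Tk1, Ccnd1 and Rrm2, while in Top2a, Ccna2 and Uhrf1 it was the lowest of all 9 libraries. The part of these cells and of the acute phase in the values of the listed genes was not tested.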

How the data were processed

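RNA-seq was measured in 9 liver libraries of 3 groups. The authors deposited 1 table of normalized counts, a signal unit. Per the submitters' processing notes, reads were processed with TopHat2, Bowtie2 and featureCounts on GRCm38; versions, annotation, strand setting and scaling tool are not given in the sources used here. Each column held whole multiples of 1 step, so whole reads were recovered (tolerance 0.0051 deposited units, at least 99.995% of values whole per library, 5 values not whole). Totals were 59678412 to 66384374 reads.

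Values were fitted as log2(value + 1) with limma 3.58.1 (R 4.3.3, variance trend, all 9 libraries, 6 residual degrees of freedom) in 15238 genes with a mean of at least 10. Tests were two-sided with Benjamini-Hochberg adjustment over all genes tested and a threshold of 0.05. A fold change on this scale understates the change of scarce genes. Fold values in words are ratios of group means. The alternatives edgeR 4.0.16 and DESeq2 1.42.0 took the recovered reads, and adjusted p-values that DESeq2 left undefined stayed so. The procedure was tested on simulated data. Gene positions and exon lengths came from GENCODE M21.

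The members and lists were chosen with earlier results of these data known. Genes given by library are those called by limma in any comparison, those called by both edgeR and DESeq2, and in each role group the gene with the smallest limma p against WT for KO and for KI; pathway genes are the called ones, at most 4 a list and comparison. Alternatives were pseudocounts, abundance filters, scalings, tools, left-out libraries, a pancreatic covariate and replicate blocks. Replicate numbers of the titles and of the descriptions differ, and neither was taken as pairing the samples.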

Additional observations from a re-analysis of the deposited data

How the results depend on the processing

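The count of listed genes called in KO against WT was 4. It was 8 with DESeq2, 2 with the pancreatic covariate, 2 with scaling to the library total, 0 without the 3 libraries with pancreatic transcripts, and 1 to 10 with single libraries left out (10 without KO_1, 1 without WT_1 or WT_2, 2 without WT_3, KO_2 or KO_3). In KI against KO the count was 3. It was 10 with DESeq2, 0 with only the 2 groups fitted, 0 with the covariate and 0 to 8 with single libraries left out (8 without KO_1, 0 without KI_1, KI_3 or KO_2, 1 without any WT library). The fit without the 3 libraries keeps KI_2 as the only KI library, and its calls are not given for the KI comparisons. In KI against WT the count was 0 under all other alternatives. The causes of these shifts were not tested.

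Whether the replicate numbers pair the libraries is settled neither by the labels nor by residual correlations. Between libraries of the same title number these ran from −0.136 to 0.568. The highest were 0.568 for WT_3 and KI_3, which both held pancreatic transcripts, and 0.531 for WT_2 and KI_2. Differently numbered libraries reached at most 0.319. With the title number as a replicate block the counts were 5 in KO against WT and 5 in KI against KO, and with the description number 3 and 3; in KI against WT both blocks gave 0.

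Of the log2 fold changes of single genes under the alternatives, 1034 kept direction and side of the threshold, 172 lost the call, 11 gained it and 20 changed sign, none of the 20 called. Cdc45 in KI against WT (0.06) was −0.04 with total scaling, −0.28 without the 3 libraries, −0.04 without KI_3 and −0.12 to 0.17 over all single left-out libraries. E2f1 in KI against WT (0.01) was −0.02 with the covariate, −0.09 with total scaling, −0.09 without WT_1, −0.00 without WT_2 and −0.19 (KI_1) to 0.18 over single left-out libraries. Cdk4 in KO against WT (−0.04) was 0.04 without KO_1 and 0.03 without WT_1. In KI against KO, Cdt1 (0.03) was −0.08 with total scaling, −0.07 without KI_2 and −0.16 (KO_2) to 0.14 over single left-out libraries; Fen1 (0.07) was −0.03 with total scaling and −0.10 (KI_2) to 0.26 over single left-out libraries. Rrm2 in KI against KO (−0.01) was 0.27 with the covariate, 0.31 without the 3 libraries, 0.39 without KI_3 and −0.38 to 0.61 (KO_1) over single left-out libraries.

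Over all genes, calls in KO against WT numbered 1346; they were 2294 with DESeq2, 871 with 2 groups, 763 with the covariate and 30 without the 3 libraries, and 501 to 2516 with single libraries left out. In KI against KO they were 1287, then 2287 with DESeq2, 608 with 2 groups and 141 with the covariate, and 400 to 2301 with single libraries left out. Counting error limits the genes near 10 counts, Aurkb and Ccnb1 among them.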
